A study of Mus musculus with 9 samples.

Results

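Irises of injured mice labelled *VEGFR3iLECko* were compared with irises of injured *VEGFR3fl/fl* mice across all genes. The comparison took 6 of the 9 bulk RNA-Seq libraries of the series, 3 in each group, and each library pooled 3 irises. Both groups were on a C57BL/6J background and carried floxed *VEGFR3* on both alleles. The *VEGFR3iLECko* mice also carried *Prox1-CreERT2*, a tamoxifen-inducible Cre recombinase driven by the promoter of *Prox1*, and the *VEGFR3fl/fl* mice were their littermates, whose genotype tag was WT. Both groups received a corneal alkali injury (CAI) at 6 weeks of age, for which 1 M sodium hydroxide (0.5 μL) was held on the cornea for 60 seconds. Tamoxifen was injected at 80 mg/kg on days 13 to 17 after injury, and irises were collected at week 10. The Sham group, 3 libraries of PBS-treated *VEGFR3fl/fl* irises, entered the fit for its spread between replicates and is given as a background level. The genotype tags of replicates 2 and 3 labelled *VEGFR3iLECko* named another VEGFR number, whereas their titles gave VEGFR3.

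VEGFR3 is the receptor of VEGFC and VEGFD on lymphatic endothelial cells (LECs), and its signal drives the sprouting of lymphatic vessels. A healthy iris is regarded as free of classic lymphatics, and lymphatic vessels elsewhere carry antigen, macrophages, dendritic cells (DCs) and T cells out of inflamed tissue. Prox1 is the transcription factor that sets lymphatic identity, and it is also made in lens and in some retinal neurons. The comparison asks how the transcriptome of the injured iris differed when VEGFR3 was targeted in Prox1-expressing cells.

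In the libraries labelled *VEGFR3iLECko*, 14 of 17 macrophage genes were lower. By the limits given below, 7 of them were called as downregulated, against 0.466% of all genes. Among the 7 were *Fcgr1*, *Aif1* and the 3 chains of complement C1q, while *Cd14* of the same list rose. The cytokine genes *Csf3* and *Il6* and the immediate early genes *Nr4a1* and *Nr4a2* also rose. Grouped by function after their values were seen, downregulated genes included further genes of macrophages and lymphocytes, and upregulated genes included those of the eye field, of epithelial transport and of neural adhesion. The list of neuronal genes had a median of -0.22, which ran from -0.38 to 1.13 over 21 alternatives and changed sign in 4. The median of the Schwann cell genes was 0.084. All 11 neutrophil genes were higher in level without passing the test. Differentially expressed genes (DEGs) were those past 1.5-fold with p below 0.05 in the quasi-likelihood test of edgeR, after Benjamini-Hochberg adjustment over 15010 genes. There were 86 upregulated DEGs (0.573% of the genes tested) and 70 downregulated DEGs (0.466%). Their median log2 fold change was 0.87 among upregulated and -0.77 among downregulated DEGs, against -0.0099 over all genes. A change of more than 2-fold was reached by 31 upregulated and 10 downregulated DEGs. The groups did not overlap in any of the 156 DEGs, and over all genes tested they did not overlap in 26.7%. The smallest adjusted p was 0.00861, that of *Fcgr1*. Without the demand on fold, 1.56% of the genes passed, and 51.5% of all genes had a log2 fold change below 0.

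**Figure D1:**
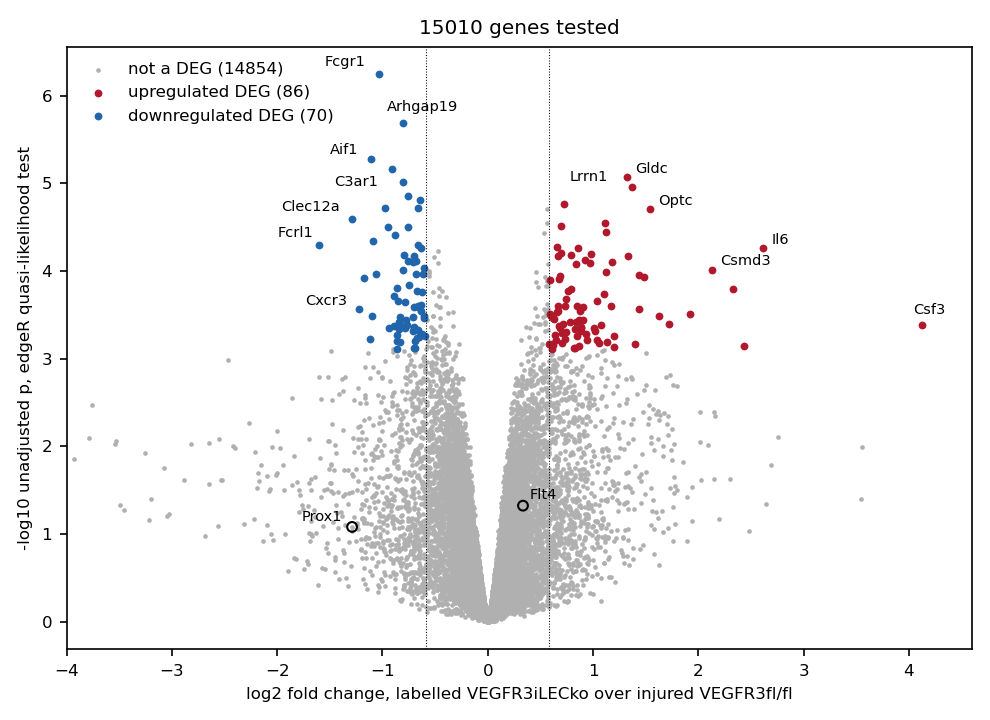
Each point is 1 of the 15010 genes tested. The x axis gives the log2 fold change of the libraries labelled VEGFR3iLECko over injured VEGFR3fl/fl libraries and the y axis -log10 of the unadjusted p of edgeR's quasi-likelihood test. Red points are the 86 upregulated and blue points the 70 downregulated DEGs, dotted lines mark 1.5-fold, black rings mark Flt4 and Prox1, and 16 genes lie outside the x axis. Csf3 stands farthest to the right among the DEGs, and Fcrl1 farthest to the left.

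These calls rested on a narrow margin. Without replicate 2 labelled *VEGFR3iLECko* there were 0 upregulated and 0 downregulated DEGs by edgeR, while 502 and 412 genes past 1.5-fold had p below 0.05 before adjustment. The adjusted p of the 156 DEGs was then 0.0680 to 0.169, and across every alternative it ran from 6.22e-19 to 0.472. Of the 156 DEGs, 155 kept their direction in all 21 alternatives and *Cdh9*, a cadherin gene, in the 19 in which it was tested. The alternatives reuse the libraries in which the DEGs were chosen, and the groups of the DEGs do not overlap. A kept direction was therefore largely set by that choice and is no separate support. Of all DEGs, 152, 82 upregulated and 70 downregulated, were also called by DESeq2's Wald test on both the 9 libraries and the 6 injured ones.

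Depth was similar, at 17538981 to 18306359 counts in injured *VEGFR3fl/fl* and 17561521 to 17591702 in the libraries labelled *VEGFR3iLECko*. The sum of 4 Y-linked genes differed with the group. It was 150.7, 135.9 and 0.804 CPM (counts scaled to a common library size) in injured *VEGFR3fl/fl* replicates 1 to 3 and 1.11, 0.736 and 0.806 CPM in the libraries labelled *VEGFR3iLECko*. Against the single *VEGFR3fl/fl* library without Y-linked counts, replicate 3, the median log2 difference was 0.72 for the upregulated DEGs and -0.72 for the downregulated DEGs. Of these, 62 and 58 exceeded 1.5-fold. The DEGs were chosen with replicate 3 in the fit, and their groups do not overlap. Their direction against this library was thus set by that choice and gives no separate support. With the Y-linked level as a term in the edgeR fit 0 upregulated and 2 downregulated DEGs were found, and 312 and 322 genes past 1.5-fold had p below 0.05 before adjustment. *VEGFR3fl/fl* replicate 1 stood apart on the second principal component, at -67.4 against -8.13 to 31.7 in the other 8 libraries. It held 163 CPM of *Myoc* and 117 CPM of *Aldh3a1*, against at most 21.8 and 10.2 CPM in the other injured libraries. Without it there were 60 upregulated and 57 downregulated DEGs. The part of these differences in the results was not tested beyond these values.

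*Flt4* (NCBI Gene ID 14257, chr11:49609679-49652739 of GRCm38.p6), which encodes VEGFR3, was not lower in the libraries labelled *VEGFR3iLECko*. Replicates 1 to 3 held 16.8, 20.7 and 22.97 CPM in injured *VEGFR3fl/fl* and 27.9, 20.96 and 27.4 CPM in the libraries labelled *VEGFR3iLECko*, against 15.6, 13.4 and 14.9 CPM in Sham. The 2 injured groups overlapped, because replicate 2 labelled *VEGFR3iLECko* lay between replicates 2 and 3 of *VEGFR3fl/fl*. The log2 fold change was 0.33 (SE 0.15, adjusted p = 0.1999 by edgeR), and a two-sided exact permutation test gave p = 0.2, where 0.1 is the smallest that 3 against 3 libraries allow. A count over the whole gene does not read the floxed part alone. RNA of a whole iris cannot tell fewer cells of a type from less RNA per cell. The group is therefore named by its label throughout.

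*Prox1* (chr1:190118035-190170827) held 4.49, 2.99 and 0.574 CPM in injured *VEGFR3fl/fl* and 0.935, 1.13 and 1.21 CPM in the libraries labelled *VEGFR3iLECko*. *VEGFR3fl/fl* replicate 3 lay below all 3 labelled *VEGFR3iLECko*, so the groups overlapped (log2 fold change -1.29, SE 0.66, adjusted p = 0.256 by edgeR). Its direction was not stable. The log2 fold change was 0.57 with the Y-linked level as a term and 0.92 with both *VEGFR3fl/fl* libraries that hold Y-linked counts left out, a setting added once the data had been seen. Its adjusted p ran from 0.0736 to 0.895 over the alternatives.

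The lymphatic endothelium list of 15 genes held 1 DEG, the upregulated *Reln*, against 0.573% of all genes. Its median log2 fold change was 0.020, with 8 genes higher and 7 lower. Its sign changed between alternatives, with -0.074 without *VEGFR3fl/fl* replicate 1 and 0.23 without the 2 libraries that hold Y-linked counts. The summed level was 1325 to 1454 CPM in injured *VEGFR3fl/fl*, 1477 to 1568 CPM in the libraries labelled *VEGFR3iLECko* and 1239.6 to 1398 CPM in Sham. *Reln*, which encodes a secreted glycoprotein made by LECs and by neurons, rose from 129, 124 and 126 CPM to 223, 234 and 178 CPM, and Sham held 567, 435 and 513 CPM (log2 fold change 0.75, adjusted p = 0.0361 by edgeR).

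The genes that define LECs were low or did not separate the groups. *Lyve1*, a hyaluronan receptor of LECs and some macrophages, held 0.303, 3.98 and 0.861 CPM in injured *VEGFR3fl/fl* and 1.11, 1.93 and 3.74 CPM in the libraries labelled *VEGFR3iLECko*. *Ccl21a*, the LEC chemokine that guides DCs and T cells, held 92.4, 4.62 and 0 CPM and 0.117, 0.1699 and 0.345 CPM. Its level came from *VEGFR3fl/fl* replicate 1, the library that stood apart, and near-identical copies of this gene make its counts uncertain. *Pdpn*, also made by fibroblasts, held 613, 453 and 499 CPM and 611, 565 and 567 CPM, which overlapped.

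Blood endothelium, with 15 genes, held 0 DEGs and a median of -0.15. *Pecam1*, which encodes CD31, held 272, 306 and 288 CPM in injured *VEGFR3fl/fl* and 247, 301 and 314 CPM in the libraries labelled *VEGFR3iLECko*, and the groups overlapped. Of 10 VEGF ligands and receptors 0 were DEGs, 7 were higher and the median was 0.29. *Vegfa*, the ligand of blood vessel growth, held 67.1, 121 and 106 CPM and 178, 141 and 147 CPM without overlap (log2 fold change 0.66, adjusted p = 0.0984 by edgeR). *Vegfd*, a ligand of VEGFR3, held 7.404, 6.85 and 7.52 CPM and 8.88, 11.8 and 12.1 CPM, also without overlap (log2 fold change 0.59, adjusted p = 0.0717 by edgeR). Neither passed the test, and groups without overlap and higher in the libraries labelled *VEGFR3iLECko* occurred in 12.4% of all genes.

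Macrophage genes made up the largest group of downregulated DEGs by function, with 19 of the 70 encoding receptors, complement parts or other macrophage proteins. These groupings by function were made after the values were seen. The log2 fold changes of the 19 ran from -0.60 for *Adgre1* to -1.29 for *Clec12a*, with a median of -0.83. *Fcgr1* (chr3:96282909-96293969), the high-affinity Fc receptor for IgG, held 59.1, 58.5 and 67.6 CPM in injured *VEGFR3fl/fl*, 32.4, 29.8 and 28.4 CPM in the libraries labelled *VEGFR3iLECko* and 4.93, 5.08 and 5.35 CPM in Sham. It fell 2.04-fold (log2 fold change -1.03, SE 0.084, adjusted p = 0.00861 by edgeR), with a gap between groups wider than the spread inside either. *Aif1* (chr17:35170986-35176083), the macrophage and microglia protein IBA1, held 24.8, 24.9 and 24.003 CPM and 12.3, 10.02 and 11.9 CPM, a 2.15-fold fall (log2 fold change -1.10, SE 0.12, adjusted p = 0.0214 by edgeR).

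All 3 chains of complement C1q, which macrophages make in quantity and which opens the classical pathway, fell together. *C1qb* (chr4:136880126-136886200) held 984, 902 and 762 CPM in injured *VEGFR3fl/fl* and 524, 430.2 and 421 CPM in the libraries labelled *VEGFR3iLECko* (log2 fold change -0.95, SE 0.12, adjusted p = 0.0235 by edgeR). *C1qa* and *C1qc* had log2 fold changes of -0.79 and -0.76 (adjusted p = 0.0263 and 0.0263 by edgeR). *C3ar1* (chr6:122847140-122856157), the receptor for the anaphylatoxin C3a, held 131, 119.9 and 103 CPM and 61.9, 65.7 and 60.96 CPM (log2 fold change -0.90, adjusted p = 0.0214 by edgeR). In the complement list of 17 genes, 4 were downregulated DEGs, these same C1q chains and *C3ar1*, against 0.466% of all genes, and 0 were upregulated. The list as a whole was mixed, with 12 genes lower and 5 higher. Its median was -0.28, and -0.059 without *VEGFR3fl/fl* replicate 1.

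Other surface receptors of myeloid cells fell by like amounts. *Clec12a* (chr6:129349783-129365303), an inhibitory C-type lectin that senses uric acid crystals, held 30.04, 21.7 and 31.2 CPM in injured *VEGFR3fl/fl* and 12.6, 10.6 and 10.8 CPM in the libraries labelled *VEGFR3iLECko* (log2 fold change -1.29, adjusted p = 0.0235 by edgeR). *Cx3cr1* (chr9:120048683-120068296), the fractalkine receptor of monocytes and resident macrophages, held 47.5, 32.5 and 31.4 CPM and 23.02, 16.3 and 18.7 CPM, and Sham held 21.5, 19.8 and 20.9 CPM (log2 fold change -0.94, adjusted p = 0.0417 by edgeR). For *Cx3cr1* the Sham levels lay inside the range of the libraries labelled *VEGFR3iLECko*. *Ms4a7*, a membrane protein of tissue macrophages, and *Ly86*, which encodes the MD-1 partner of an LPS receptor homolog, had log2 fold changes of -1.10 and -1.06 (adjusted p = 0.0399 and 0.0278 by edgeR). *Adgre1*, which encodes F4/80, had the smallest fall of the group at -0.60 (adjusted p = 0.0278 by edgeR).

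In the macrophage list, 7 of 17 genes were downregulated DEGs and 1 was upregulated, against 0.466% and 0.573% of all genes. The median log2 fold change was -0.62, with 14 genes lower and 3 higher, and it lay between -0.56 and -0.66 with any 1 *VEGFR3fl/fl* library left out. The member of highest level, *Lyz2*, which encodes lysozyme M, held 17618, 9118 and 12446 CPM and 7811, 7942 and 6154 CPM without overlap, and it did not pass the test (log2 fold change -0.84, adjusted p = 0.076997 by edgeR). *Csf1r*, the receptor for the growth factor that macrophages depend on, held 311, 324 and 334 CPM and 226, 211 and 243 CPM. It had an adjusted p of 0.0263 by edgeR, but its change of 1.42-fold was under 1.5-fold. *Cd14*, the co-receptor of TLR4 for LPS, was the upregulated member. It rose from 60.7, 57.9 and 54.8 CPM to 79.6, 111 and 126 CPM (log2 fold change 0.86, adjusted p = 0.0407 by edgeR), so this marker moved against *Fcgr1*, *Aif1* and the C1q genes.

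**Figure D2:**
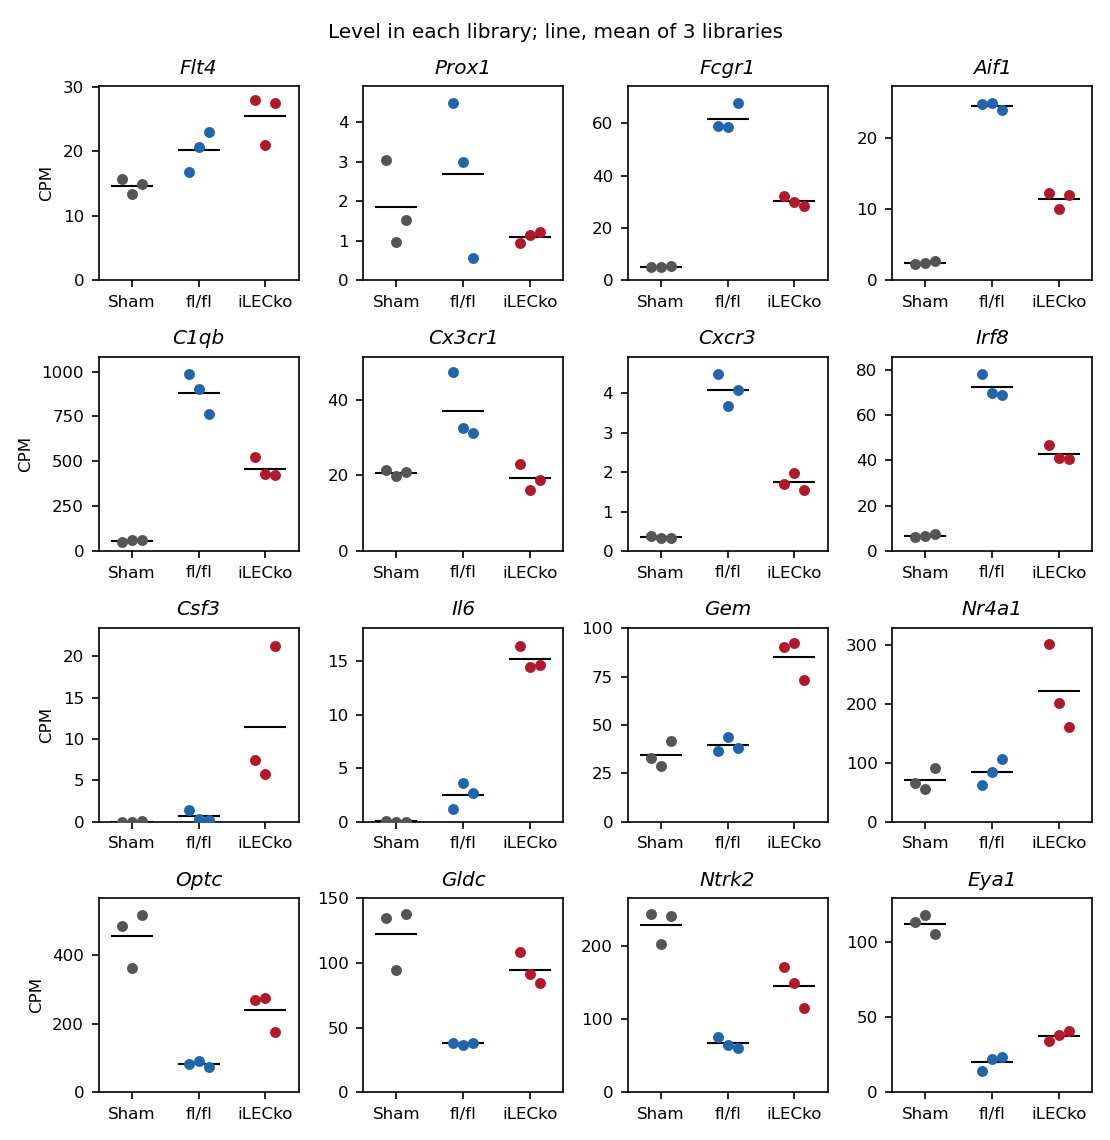
Levels of 16 genes in CPM on the y axis for Sham, injured VEGFR3fl/fl (fl/fl) and injured libraries labelled VEGFR3iLECko (iLECko), with 1 point for each of 3 libraries and a line at their mean. Flt4 and Prox1 overlap between the injured groups, and the 14 DEGs that follow them do not.

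Further lists of myeloid function had the same direction. All 6 subunits of the phagocyte NADPH oxidase, the enzyme of the respiratory burst, were lower without overlap between groups, against 14.3% of all genes lower without overlap, and 0 were DEGs (median -0.47). *Cybb*, its catalytic subunit, held 292, 161 and 251 CPM and 138, 145 and 129.7 CPM (log2 fold change -0.77, adjusted p = 0.0625 by edgeR). All 9 Fc receptors were lower, with 3 downregulated DEGs against 0.466% of all genes, and near-identical copies make some of this family uncertain. All 20 leukocyte kinases and adapters were lower (median -0.47). Of them 4, *Ptpn6*, *Ptprcap*, *Arhgdib* and *Fermt3*, were downregulated DEGs, against 0.466% of all genes. *Ptpn6* encodes SHP-1, a phosphatase that damps leukocyte receptor signals (log2 fold change -0.61, adjusted p = 0.0399 by edgeR). *Fermt3* encodes kindlin-3, which activates integrins in blood cells (log2 fold change -0.63, adjusted p = 0.0263 by edgeR).

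Among 14 genes of lipid-associated macrophages all were lower (median -0.68) and 0 were DEGs. *Apoe*, the lipid carrier, was the member of highest level and held 21730.0, 16678 and 13437 CPM in injured *VEGFR3fl/fl* and 12000.2, 10095 and 9297 CPM in the libraries labelled *VEGFR3iLECko* (log2 fold change -0.72, adjusted p = 0.07201 by edgeR). *Trem2*, a lipid-sensing receptor, held 422, 263 and 207 CPM and 161, 131 and 115 CPM (log2 fold change -1.13, adjusted p = 0.0512 by edgeR). Both groups of *Trem2* values were apart, while the adjusted p lay just above the threshold. *Plin2*, a coat protein of lipid droplets outside this list, was a downregulated DEG.

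Transcription factors of the myeloid lineage were among the downregulated DEGs. *Irf8* (chr8:120736358-120756694), needed for monocytes, DCs and microglia, held 77.98, 69.8 and 68.96 CPM in injured *VEGFR3fl/fl* and 46.8, 40.8 and 40.8 CPM in the libraries labelled *VEGFR3iLECko* (log2 fold change -0.76, SE 0.090, adjusted p = 0.0214 by edgeR). *Irf5*, which acts below Toll-like receptors, held 46.001, 42.3 and 42.7 CPM and 29.2, 28.3 and 26.3 CPM (log2 fold change -0.64, adjusted p = 0.0214 by edgeR). *Cebpa*, a factor of granulocyte and monocyte precursors, and *Lyl1*, a blood lineage factor, had log2 fold changes of -0.78 and -0.98 (adjusted p = 0.0384 and 0.0214 by edgeR). *Tlr7*, the endosomal sensor of single-stranded RNA, and *Unc93b1*, which carries such sensors to the endosome, also fell, with log2 fold changes of -0.70 and -0.76 (adjusted p = 0.0263 and 0.0235 by edgeR). The lists that hold these genes were mixed. Of 12 myeloid transcription factors 7 were lower, 2 of them DEGs (0.466% of all genes), and 5 higher (median -0.32). Of 15 genes of Toll-like receptor signaling 9 were lower, 2 of them DEGs (0.466% of all genes). The other 6 were higher, with *Cd14* an upregulated DEG (0.573% of all genes). The median of -0.062 turned to 0.040 without *VEGFR3fl/fl* replicate 3.

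Lymphocyte surface genes, 6 of the 70, had the largest median fall of the groups by function, at -1.15. *Fcrl1* (chr3:87376353-87403967), an Fc receptor-like protein known from B cells, held 9.65, 9.25 and 6.78 CPM in injured *VEGFR3fl/fl*, 2.57, 2.78 and 3.11 CPM in the libraries labelled *VEGFR3iLECko* and 0.498, 0.282 and 0.451 CPM in Sham. It fell 3.03-fold (log2 fold change -1.60, SE 0.22, adjusted p = 0.0263 by edgeR). *Cd79b*, part of the B cell receptor, held 3.58, 3.51 and 3.33 CPM and 1.75, 1.303 and 0.921 CPM (log2 fold change -1.39, adjusted p = 0.0612 by edgeR). *Ms4a1*, which encodes CD20, was too low to be tested. The list of 8 tested B cell and plasma cell genes had a median of -0.57 with 1 downregulated DEG, *Fcrl1*, against 0.466% of all genes. That median was -0.032 without *VEGFR3fl/fl* replicate 1 and 0.12 without both libraries that hold Y-linked counts.

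*Cxcr3* (chrX:101731535-101734147), the receptor that draws effector T cells to interferon-induced chemokines, held 4.49, 3.69 and 4.08 CPM in injured *VEGFR3fl/fl* and 1.69, 1.98 and 1.55 CPM in the libraries labelled *VEGFR3iLECko* (log2 fold change -1.22, SE 0.21, adjusted p = 0.0386 by edgeR). *Ly9*, a SLAM family receptor of lymphocytes and macrophages, held 112, 75.1 and 73.5 CPM and 42.004, 41.7 and 31.4 CPM (log2 fold change -1.18, adjusted p = 0.0283 by edgeR). *Ptprcap*, a partner of CD45, and *Cd48*, a SLAM ligand, had log2 fold changes of -1.12 and -0.89 (adjusted p = 0.0461 and 0.0345 by edgeR).

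The defining T cell genes were lower as well, at low levels and without passing the test. *Cd3e*, a chain of the T cell receptor complex, held 1.396, 1.93 and 1.38 CPM in injured *VEGFR3fl/fl* and 0.467, 0.6796 and 0.288 CPM in the libraries labelled *VEGFR3iLECko* (log2 fold change -1.70, SE 0.51, adjusted p = 0.101 by edgeR). *Cd3g* held 5.89, 5.503 and 3.56 CPM and 1.23, 2.78 and 1.73 CPM (log2 fold change -1.38, adjusted p = 0.0913 by edgeR). In the T cell list of 15 genes, 13 were lower, 8 of them without overlap (14.3% of all genes), 0 were DEGs and the median was -0.74. The summed level of the list was 64.7 to 88.0 CPM in injured *VEGFR3fl/fl*, 42.8 to 59.5 CPM in the libraries labelled *VEGFR3iLECko* and 9.49 to 10.1 CPM in Sham.

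Genes of antigen presentation were lower in level, with wide spread among the *VEGFR3fl/fl* libraries, and sequence shared within the H2 family makes single counts uncertain. All 13 genes of MHC class II presentation, by which DCs, macrophages and B cells show peptides to helper T cells, were lower (median -0.93) and 0 were DEGs. *H2-Aa*, a class II chain, held 607, 201 and 357 CPM and 218, 157 and 121 CPM. Replicate 1 labelled *VEGFR3iLECko* exceeded replicate 2 of *VEGFR3fl/fl*, so the groups overlapped (log2 fold change -1.23, adjusted p = 0.1005 by edgeR). *H2-Oa*, which tunes class II loading in B cells and DCs, held 3.28, 2.52 and 2.47 CPM and 1.17, 0.906 and 0.863 CPM without overlap (log2 fold change -1.49, adjusted p = 0.0509 by edgeR). Of 14 genes of class I presentation, 12 were lower, 10 without overlap against 14.3% of all genes (median -0.45), and 0 were DEGs. *Psmb8*, a subunit of the immunoproteasome, held 79.7, 55.6 and 68.2 CPM and 42.2, 39.6 and 40.8 CPM (log2 fold change -0.73, adjusted p = 0.0548 by edgeR). In the DC list of 12 genes, 1 was a downregulated DEG, *Irf8*, against 0.466% of all genes, and 11 were lower.

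Interferon-inducible genes supplied 8 downregulated DEGs, with log2 fold changes of -0.59 to -0.86. *Ifi209*, *Mndal*, *Ifi207* and *Ifi211* belong to the PYHIN family of DNA sensors and share long stretches of sequence, so that their separate counts are uncertain. The others were *Ifi47*, an interferon-induced GTPase, *Sp110*, *Slfn2* and *Trim14*. All 22 genes of a separate interferon response list were lower, 14 without overlap against 14.3% of all genes, and 0 were DEGs (median -0.52). *Irf7*, the regulator of type I interferon, held 53.2, 42.3 and 78.96 CPM and 30.4, 30.6 and 29.2 CPM (log2 fold change -0.95, adjusted p = 0.0777 by edgeR). *Rsad2*, an antiviral enzyme, held 14.3, 33.4 and 14.8 CPM in injured *VEGFR3fl/fl* and 8.82, 8.33 and 9.84 CPM in the libraries labelled *VEGFR3iLECko*, while Sham held 9.69, 12.03 and 10.6 CPM (log2 fold change -1.21, adjusted p = 0.07197 by edgeR).

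**Figure D3:**
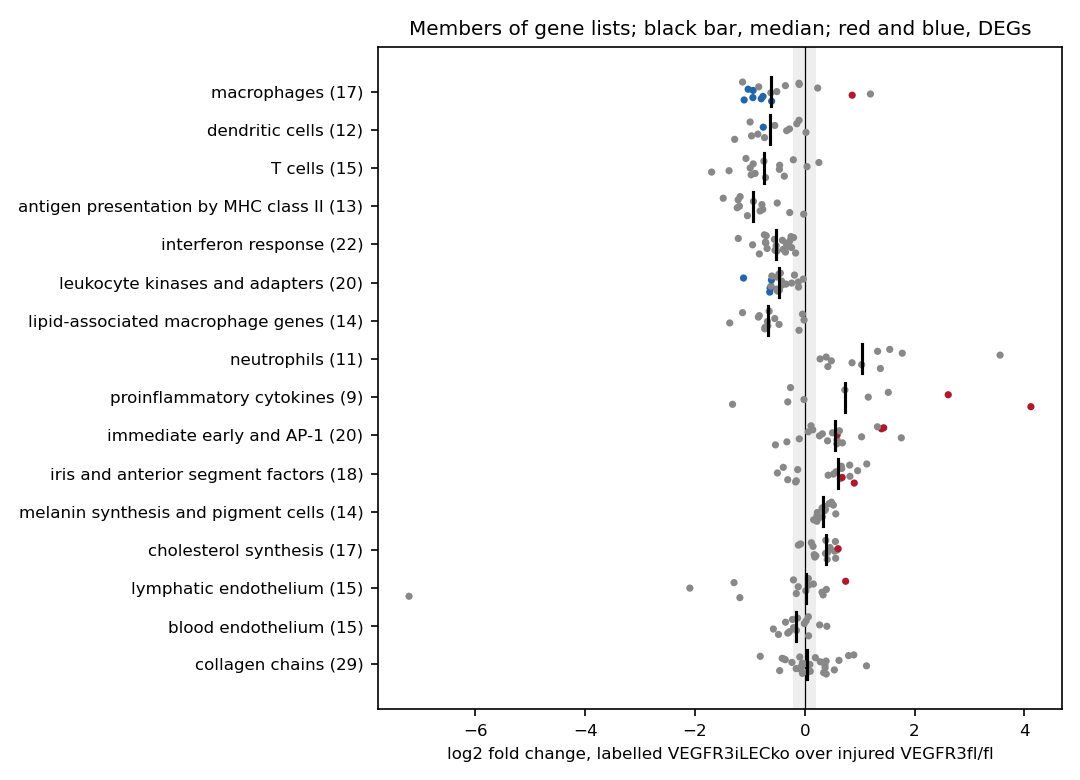
Log2 fold change on the x axis of every tested member of 16 gene lists, libraries labelled VEGFR3iLECko over injured VEGFR3fl/fl, with the number of members in brackets, a black bar at the median and the interquartile range of all 15010 genes shaded. Blue points are downregulated and red points upregulated DEGs. The 7 lists at the top, of leukocytes and of the interferon response, have medians from -0.93 to -0.47, and lymphatic endothelium, blood endothelium and collagen chains have medians from -0.15 to 0.045.

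The bases before the transcription start of the DEGs were read from RefSeq (GRCm38.p6), 250 bases for each gene at the first start listed. Of the 70 downregulated DEGs 61 had an entry, and 7 of these (11.5%) held the PU.1 motif GAGGAAGT on either strand, against 2.41% of 11848 tested genes and 0 of 63 upregulated DEGs. PU.1 is a transcription factor of myeloid and B cells. A match of letters is a description and not a site of binding. Windows of 4 downregulated DEGs of different function that overlap no other RefSeq gene are shown as examples of the match, 5′ to 3′ on the strand of the gene, with the motif or its reverse complement in capitals.
C1qc (chr4:136893062-136893149, minus strand): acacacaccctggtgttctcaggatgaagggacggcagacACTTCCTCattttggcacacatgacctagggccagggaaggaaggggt
Cxcr3 (chrX:101734148-101734203, minus strand): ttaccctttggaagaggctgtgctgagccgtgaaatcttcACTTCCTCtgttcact
Ifi47 (chr11:49076399-49076486, plus strand): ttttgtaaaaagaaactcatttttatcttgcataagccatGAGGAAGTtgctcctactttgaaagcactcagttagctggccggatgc
Selenop (chr15:3270546-3270633, plus strand): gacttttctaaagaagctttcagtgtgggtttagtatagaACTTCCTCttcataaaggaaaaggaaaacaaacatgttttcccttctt

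The interferon-stimulated response element, searched on both strands as GAAA, 2 bases of any kind and GAAA, was in 8.20% of downregulated DEGs, 1.59% of upregulated DEGs and 2.72% of the tested genes. The AP-1 motif TGANTCA was in 11.5%, 11.1% and 4.63%, and the κB consensus in 13.1%, 11.1% and 8.90%. The motifs can overlap each other. The κB match of *Il6*, the upregulated cytokine described next, lies at -44 to -35 from its start, and the window is shown, with the match in capitals, as the upregulated counterpart. It overlaps the span of 1 other RefSeq gene.
Il6 (chr5:30013030-30013113, plus strand): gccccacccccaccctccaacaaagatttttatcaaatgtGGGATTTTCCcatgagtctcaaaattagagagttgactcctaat

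The cytokine genes *Csf3* and *Il6* led the upregulated DEGs. *Csf3* (chr11:98700183-98703631), the granulocyte colony-stimulating factor, held 1.46, 0.351 and 0.172 CPM in injured *VEGFR3fl/fl* and 7.42, 5.78 and 21.3 CPM in the libraries labelled *VEGFR3iLECko*, and Sham held 0, 0 and 0.0563 CPM. It rose 17.4-fold (log2 fold change 4.12, SE 0.76, adjusted p = 0.0417 by edgeR), with replicate 3 labelled *VEGFR3iLECko* well above replicates 1 and 2. The size of this rise was uncertain. The log2 fold change of *Csf3* was 3.32 without that library and 5.43 without *VEGFR3fl/fl* replicate 1, the highest of its group, and over 21 alternatives it ran from 3.32 to 6.05, with a call in 8 of them (adjusted p from 5.44e-06 to 0.253). *Il6* (chr5:30013114-30019975), the cytokine of the acute phase and of T and B cell help, held 1.15, 3.57 and 2.699 CPM, 16.5, 14.5 and 14.7 CPM and 0.0554, 0 and 0 CPM in the same order of groups. It rose 6.12-fold (log2 fold change 2.61, SE 0.37, adjusted p = 0.0263 by edgeR), and the 3 libraries labelled *VEGFR3iLECko* lay close together.

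Among 9 tested proinflammatory cytokines these were the 2 upregulated DEGs, against 0.573% of all genes. Counting these 2, 5 of the 9 were higher, all 5 without overlap (12.4% of all genes), and the median was 0.73. The remaining 4 were lower, 0 of them without overlap and 0 as DEGs. The genes named next are all from the higher side, so they do not describe cytokines as a whole. *Il1b*, a product of activated myeloid cells, held 32.6, 108 and 100.5 CPM in injured *VEGFR3fl/fl* and 135, 166 and 239 CPM in the libraries labelled *VEGFR3iLECko* (log2 fold change 1.16, adjusted p = 0.122 by edgeR). *Osm* and *Lif*, cytokines that share a receptor chain with interleukin 6, had log2 fold changes of 0.73 and 1.52 (adjusted p = 0.0652 and 0.0858 by edgeR), and that of *Lif* was 0.90 without replicate 1 labelled *VEGFR3iLECko*. *Il33*, an alarmin of barrier cells, held 27.9, 13.7 and 13.3 CPM and 75.2, 38.9 and 28.1 CPM, and *Il1rl1*, its receptor, held 5.22, 8.08 and 5.17 CPM and 8.12, 22.3 and 25.2 CPM. Neither passed the test (adjusted p = 0.1003 and 0.0664 by edgeR).

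Neutrophil genes were higher in level but varied between libraries. All 11 tested genes of the list were higher (median 1.04), 0 without overlap and 0 DEGs, and without replicate 3 labelled *VEGFR3iLECko* the median was 0.38. *S100a8*, a subunit of calprotectin, held 32.95, 62.8 and 64.03 CPM in injured *VEGFR3fl/fl* and 59.997, 76.7 and 265 CPM in the libraries labelled *VEGFR3iLECko* (log2 fold change 1.33, adjusted p = 0.164 by edgeR). Replicate 3 labelled *VEGFR3iLECko*, also the highest in *Csf3*, held the most *S100a8*, whose log2 fold change was 0.36 without it, and replicate 1 overlapped with *VEGFR3fl/fl*. *Cxcr2*, the chemokine receptor of neutrophils, held 9.77, 49.5 and 48.8 CPM and 45.3, 70.3 and 106 CPM (log2 fold change 1.04, adjusted p = 0.2401 by edgeR). The lineage genes *Elane* and *Mpo* were too low to be tested. *Ly6g* did not pass the filter on low counts either, because 1 library held most of its counts. It had 4, 7 and 86 counts in replicates 1 to 3 labelled *VEGFR3iLECko* and 3, 3 and 4 counts in injured *VEGFR3fl/fl*.

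Immediate early genes, which cells switch on within minutes of a stimulus and also during dissection, were higher in 17 of 20 cases (median 0.54). Over all genes 51.5% were lower. The list held 3 upregulated DEGs, *Nr4a1*, *Nr4a2* and *Ier3*, against 0.573% of all genes. *Nr4a1* (chr15:101253902-101274795), an orphan nuclear receptor, held 62.4, 83.8 and 106 CPM in injured *VEGFR3fl/fl*, 302, 201 and 162 CPM in the libraries labelled *VEGFR3iLECko* and 65.1, 55.2 and 90.7 CPM in Sham (log2 fold change 1.40, SE 0.28, adjusted p = 0.04805 by edgeR). *Nr4a2*, its relative, held 18.4, 17.5 and 16.3 CPM and 65.8, 37.9 and 37.8 CPM (log2 fold change 1.44, adjusted p = 0.0278 by edgeR). *Gem*, a small GTPase induced by mitogens that the list does not hold, rose (log2 fold change 1.11, adjusted p = 0.0235 by edgeR). *Fosl2*, an AP-1 subunit, held 60.4, 109 and 94.9 CPM and 186, 193 and 163 CPM (log2 fold change 1.04, adjusted p = 0.0523 by edgeR).

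*Stc1*, a secreted glycoprotein hormone, was a further upregulated DEG. *Cp*, the copper-bearing ferroxidase ceruloplasmin, held 221, 151 and 186 CPM and 429, 339.7 and 491 CPM (log2 fold change 1.17, adjusted p = 0.0384 by edgeR). *Lpo*, lactoperoxidase, and *Slc7a11*, the cystine importer, rose with log2 fold changes of 1.72 and 0.61 (adjusted p = 0.0417 and 0.0479 by edgeR).

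Genes of the eye field and of the iris and ciliary epithelium formed a further group of upregulated DEGs. *Optc* (chr1:133897193-133909688), which encodes opticin, a proteoglycan secreted by the ciliary epithelium, held 81.8, 90.3 and 74.2 CPM in injured *VEGFR3fl/fl*, 268, 273 and 176 CPM in the libraries labelled *VEGFR3iLECko* and 484, 360.1 and 515 CPM in Sham. It rose 2.91-fold (log2 fold change 1.54, SE 0.19, adjusted p = 0.0214 by edgeR). *Eya1*, a transcription cofactor of the eye field, held 14.4, 22.2 and 23.8 CPM, 34.2, 38.1 and 40.7 CPM and 113, 117 and 105 CPM in the same order (log2 fold change 0.90, adjusted p = 0.0407 by edgeR). In both genes the libraries labelled *VEGFR3iLECko* lay above *VEGFR3fl/fl* and below Sham.

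*Mab21l2*, a regulator of optic cup growth, *Dach1*, a partner of EYA proteins, and *Tbx22*, a T-box factor, had log2 fold changes of 0.68, 0.70 and 1.44 (adjusted p = 0.0284, 0.0235 and 0.0386 by edgeR). *Lhx2* and *Gli3*, which pattern the optic vesicle, were also upregulated DEGs. *Pax6*, the master regulator of eye development, held 194, 221 and 224 CPM and 339, 299 and 282 CPM. Its adjusted p was 0.0399 by edgeR and its change of 1.44-fold was under 1.5-fold. In the list of 18 iris and anterior segment factors, 2 were upregulated DEGs, against 0.573% of all genes. In level 12 were higher, 8 of them without overlap (12.4% of all genes), and the median was 0.61. All 14 pigment cell genes were higher (median 0.34) and 0 were DEGs. *Tyr*, the first enzyme of melanin synthesis, held 211, 261 and 323 CPM and 345, 376 and 359.7 CPM against 917, 905 and 916 CPM in Sham (log2 fold change 0.44, adjusted p = 0.106 by edgeR).

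Upregulated DEGs also included 15 genes of epithelial transport, junctions and secretion. Grouped after their values were seen, they had a median of 0.95 and held *Best2*, an anion channel of the ciliary epithelium, *Wnk4*, a kinase that sets ion transport, and *Crb2*, a protein of epithelial polarity. The separate list of aqueous secretion and ciliary epithelium, with 15 genes, held 0 DEGs, 10 genes higher and 5 lower, and its median was 0.14. *Cldn2*, a pore-forming claudin, held 49.3, 53.2 and 66.6 CPM in injured *VEGFR3fl/fl* and 107, 117 and 145 CPM in the libraries labelled *VEGFR3iLECko* (log2 fold change 1.12, adjusted p = 0.0278 by edgeR). It was the 1 DEG among 16 blood-aqueous barrier genes, against 0.573% of all genes upregulated, and 11 of the 16 were higher (median 0.34). *F5*, coagulation factor V, held 19.4, 21.1 and 16.997 CPM and 45.7, 58.1 and 56.98 CPM (log2 fold change 1.48, adjusted p = 0.0278 by edgeR). *Gldc*, the glycine decarboxylase, held 38.5, 36.9 and 38.4 CPM, 108, 91.2 and 84.4 CPM and 135, 95.01 and 138 CPM in the 3 groups (log2 fold change 1.32, SE 0.15, adjusted p = 0.0214 by edgeR).

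Neural adhesion, receptor and synaptic genes were the largest group of upregulated DEGs by function, with 24 of 86 and a median of 0.96. *Csmd3* (chr15:47580638-48792558), a synaptic membrane protein, held 0.668, 0.878 and 0.689 CPM in injured *VEGFR3fl/fl* and 2.63, 4.02 and 3.22 CPM in the libraries labelled *VEGFR3iLECko* (log2 fold change 2.13, SE 0.32, adjusted p = 0.0278 by edgeR). *Ntrk2* (chr13:58806472-59133970), the BDNF receptor TrkB, held 75.6, 63.98 and 61.1 CPM and 171, 149.6 and 115 CPM against 243, 203 and 241 CPM in Sham (log2 fold change 1.12, SE 0.15, adjusted p = 0.0254 by edgeR). *Lrrn1*, a leucine-rich neuronal protein, held 7.65, 9.601 and 9.704 CPM, 24.8, 23.4 and 21.5 CPM and 69.7, 48.2 and 67.6 CPM (log2 fold change 1.37, adjusted p = 0.0214 by edgeR). *Ajap1*, a junction protein, and *Nos1ap*, an adapter of neuronal nitric oxide synthase, had log2 fold changes of 1.62 and 1.33 (adjusted p = 0.0399 and 0.0263 by edgeR). The group also held *Cntn1*, a contactin, and *Ptprz1*, a receptor phosphatase that binds contactins.

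The level of retinal genes varied widely between libraries. The 17 tested genes of photoreceptors and other retinal neurons summed to 39.8 to 714 CPM in injured *VEGFR3fl/fl*, 79.3 to 746 CPM in the libraries labelled *VEGFR3iLECko* and 181 to 1114 CPM in Sham, so the ranges of the 3 groups overlapped. Of these 17 genes 14 were higher and 3 lower, 0 were DEGs and the median log2 fold change was 0.58. That median was 3.57 without *VEGFR3fl/fl* replicate 2, 4.10 without both libraries that hold Y-linked counts and -0.035 without replicate 1 labelled *VEGFR3iLECko*. The part of retinal RNA in the levels of the neural DEGs was not tested. The list of 20 neuronal and synaptic genes, which holds neurofilaments and transmitter genes, was chosen with earlier results of these data known. It had 3 upregulated DEGs, *Csmd3*, *Ajap1* and *Cadm2* (0.573% of all genes), with 8 genes higher and 12 lower, and a median of -0.22. That median was 0.57 without *VEGFR3fl/fl* replicate 2 and 1.13 without both libraries that hold Y-linked counts.

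Genes of cholesterol supply were higher by small amounts. Of 17 such genes 15 were higher, 9 without overlap (12.4% of all genes), and the median was 0.38. *Sqle*, squalene epoxidase, held 80.6, 63.1 and 68.2 CPM in injured *VEGFR3fl/fl* and 105, 105 and 101 CPM in the libraries labelled *VEGFR3iLECko* against 216, 216 and 215 CPM in Sham. Its adjusted p was 0.0294 by edgeR and its change was 1.47-fold, under the threshold of 1.5-fold.

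Several DEGs lay outside these groups. *Usp53*, a tight junction protein related to deubiquitinases, held 19.2, 21.2 and 18.5 CPM and 33.2, 32.7 and 31.4 CPM (log2 fold change 0.72, SE 0.089, adjusted p = 0.0214 by edgeR). *Arhgap19*, a GTPase-activating protein, held 53.04, 53.04 and 49.7 CPM and 27.3, 32.000 and 29.9 CPM (log2 fold change -0.80, SE 0.076, adjusted p = 0.0156 by edgeR). *Cyth4*, an ARF exchange factor of leukocytes, *Tmem106a*, a macrophage membrane protein, *Apobec1*, an RNA-editing cytidine deaminase, and *Ptpro*, a receptor phosphatase, had log2 fold changes of -0.66, -0.80, -1.09 and -0.89 (adjusted p = 0.0214, 0.0214, 0.0263 and 0.0417 by edgeR). *Gm30732* and *Gm52795*, gene models without an assigned function, had log2 fold changes of 2.44 and 2.33 (adjusted p = 0.0488 and 0.0319 by edgeR) at no more than 2.49 CPM in any library, and *Gm30732* had 3.27 without *VEGFR3fl/fl* replicate 2.

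*Selenop*, the plasma selenium carrier, was the downregulated DEG of highest level among the metabolic genes. It held 1489.8, 1783 and 1496 CPM in injured *VEGFR3fl/fl*, 1142, 907 and 880.1 CPM in the libraries labelled *VEGFR3iLECko* and 1584, 1828 and 1587 CPM in Sham (log2 fold change -0.70, SE 0.13, adjusted p = 0.0417 by edgeR). The libraries labelled *VEGFR3iLECko* thus lay below both other groups. *Hpgds*, the prostaglandin D2 synthase of mast cells and macrophages, fell (log2 fold change -0.66, adjusted p = 0.0263 by edgeR), as did both biliverdin reductases, *Blvra* and *Blvrb*, which turn the product of heme breakdown into bilirubin (log2 fold changes -0.60 and -0.86, adjusted p = 0.0399 and 0.0496 by edgeR).

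The number of DEGs depended on the libraries and on the tool. DESeq2's Wald test on the 9 libraries gave 344 upregulated and 282 downregulated DEGs, limma voom gave 113 and 108, and an edgeR fit of the 6 injured libraries alone gave 0 and 0, where 487 and 392 had p below 0.05 before adjustment. Leaving out a Sham library, which changes no level in the compared groups, gave 10 and 16, 38 and 38, or 3 and 8 DEGs for replicates 1 to 3. Dropping *VEGFR3fl/fl* replicate 2 or 3 gave 102 and 149 or 174 and 107. Dropping replicate 1 or 3 labelled *VEGFR3iLECko* gave 3 and 6 or 46 and 17.

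**Figure D4:**
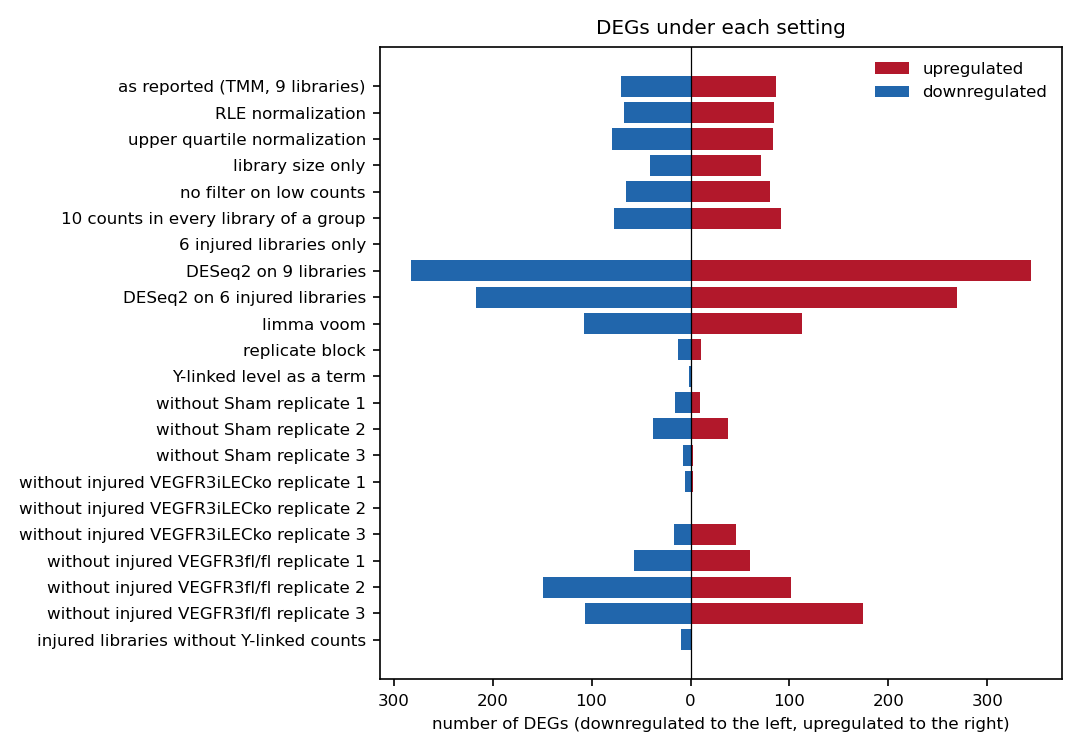
Number of DEGs on the x axis, downregulated to the left and upregulated to the right, under each choice of normalization, filter, test and libraries on the y axis. Bars are longest for DESeq2 on 9 libraries, at 344 and 282, and have no length for the 6 injured libraries alone and without replicate 2 labelled VEGFR3iLECko.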

How the data were processed

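Bulk RNA-Seq of 9 iris libraries was analysed, 3 each of Sham, injured *VEGFR3fl/fl* and injured libraries labelled *VEGFR3iLECko*. Groups were taken from titles, treatments and descriptions. The authors filtered single-end reads, and their processing notes name HISAT2 2.0.4, Bowtie2 2.2.5, DESeq2 1.4.5 and build mm10. They deposited estimated counts per gene without normalization, of which 9.83% to 10.3% in a library were not whole. A combined table held identical values in 9 columns, and its 3 columns of group averages were not used. The program that estimated the counts is not given in the sources used here. Strand was not stated, so that antisense partners cannot be told apart.

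The counts were first rounded, and R 4.3.3 was used. edgeR 4.0.16 (filterByExpr, TMM, quasi-likelihood test, group as the only term) tested 15010 of 18349 genes in all 9 libraries. The limits for DEGs were 0.05 for adjusted p and 1.5 for the fold change, without the TPM filter of the study's methods. Standard errors come from the F statistic. CPM are on the TMM scale. With simulated counts for the same comparison and 15010 genes, the procedure recovered 65 of 100 genes changed 2-fold and 91 of 100 changed 3-fold. Of these calls 0 were in the wrong direction, and there were 6 false calls. The simulation changed only genes above a limit on counts, held no injury effect and made no library stand apart. Its recovery and false calls can therefore be more favourable than those of the real data. Alternatives were RLE, upper quartile and library size scaling, other filters, DESeq2 1.42.0, limma 3.58.1 voom, a replicate block, a Y-linked term, other thresholds and leaving out each library.

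Named genes were *Flt4*, *Prox1*, the 15 DEGs of largest change in each direction with at least 1 CPM and no overlap between groups, the 5 further DEGs of smallest p in each direction, and members of 73 lists: DEGs, the highest member and defining genes. Other genes were named after their values were seen, and some items are not reported here. The comparison and the lists were chosen with earlier results of these data known. Positions, for 14974 of the 15010 genes, and promoter sequences were matched by NCBI Gene ID to RefSeq on GRCm38.p6, the assembly mm10 stands for. Replicates differed by more than counting noise, with a chi-square per degree of freedom of 5.13 to 76.2. Per the study's methods each library pooled irises of 3 mice, so p-values measure the spread between pools. Grouping of DEGs by function was made after their values were seen.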

Additional observations from a re-analysis of the deposited data

How the results depend on the processing

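Of the 156 DEGs, 155 kept their direction in all 21 alternatives and *Cdh9* in the 19 that tested it, but the number of calls changed. The kept direction was largely set by choosing the DEGs in these same libraries. Upregulated and downregulated DEGs numbered 344 and 282 by DESeq2 on 9 libraries, 269 and 217 by DESeq2 on 6, 113 and 108 by limma voom, 71 and 41 with library size only, and 0 and 0 (487 and 392 before adjustment) by edgeR on the 6 injured libraries. The share of upregulated calls was 55.1% as reported and 63.4% with library size only. With the Y-linked level as a term there were 0 and 2, and 2 and 10 without the injured libraries that hold Y-linked counts, the latter added after the data were seen. For *Prox1* the log2 fold change turned to 0.57 and 0.92 under these settings. Leaving out 1 library gave 0 to 174 upregulated and 0 to 149 downregulated DEGs. There were 122 and 112 with no fold threshold, 31 and 10 at 2-fold, 310 and 242 at an adjusted p under 0.1, and 565 and 493 before adjustment. RLE, upper quartile and other filters on low counts gave 80 to 91 and 65 to 79. The causes were not tested. With the replicate number as a block there were 11 and 13 DEGs. Same-numbered libraries of the injured groups correlated at -0.387 to 0.131, so the numbers were not taken to pair them.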

Other observations

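Of 7 tested mast cell and eosinophil genes 6 were lower in the libraries labelled *VEGFR3iLECko*, with a median log2 fold change of -1.64 and 0 DEGs. That median was -3.28 without replicate 1 labelled *VEGFR3iLECko*, -1.11 without its replicate 2 and -1.32 without *VEGFR3fl/fl* replicate 1. *Cpa3*, the mast cell carboxypeptidase, held 28.04, 9.02 and 9.99 CPM in injured *VEGFR3fl/fl* and 8.997, 0.5097 and 1.73 CPM in the libraries labelled *VEGFR3iLECko* (log2 fold change -2.07, adjusted p = 0.168 by edgeR). *Mcpt4*, a mast cell chymase, held 28.9, 11.4 and 9.88 CPM and 9.46, 0.3398 and 2.07 CPM (log2 fold change -2.08, adjusted p = 0.1703 by edgeR). Without replicate 1 labelled *VEGFR3iLECko* the log2 fold changes of *Cpa3* and *Mcpt4* were -3.80 and -3.79, and without *VEGFR3fl/fl* replicate 1 they were -1.34 and -1.42. In both genes *VEGFR3fl/fl* replicate 1 was the highest library, and the groups were apart only narrowly, replicate 1 labelled *VEGFR3iLECko* lying next to the lower *VEGFR3fl/fl* libraries.

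Collagen chains did not separate the injured groups. Of 29 chains 16 were higher and 13 lower, 0 were DEGs, and the median was 0.045, with a range of -0.084 to 0.24 over the alternatives. Their summed level was 24751 to 30663 CPM in injured *VEGFR3fl/fl* and 25075 to 30079 CPM in the libraries labelled *VEGFR3iLECko*, against 4220.4 to 4424 CPM in Sham. *Myh11*, the smooth muscle myosin of the iris sphincter, held 224, 361 and 294 CPM and 391, 306 and 417 CPM against 2665, 3384 and 2863 CPM in Sham (log2 fold change 0.34, adjusted p = 0.284 by edgeR). Of the 15 genes of aqueous secretion and ciliary epithelium, 10 higher and 5 lower with 0 DEGs and a median of 0.14, 3 were higher without overlap (12.4% of all genes). *Slc4a4*, a sodium bicarbonate cotransporter, held 36.7, 30.6 and 47.5 CPM and 92.9, 120.5 and 59.3 CPM (log2 fold change 1.25, adjusted p = 0.0573 by edgeR), and *Aqp4*, a water channel, held 19.1, 7.67 and 8.44 CPM and 48.7, 37.8 and 19.8 CPM (log2 fold change 1.60, adjusted p = 0.0782 by edgeR).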
